A study of Mus musculus with 36 samples.

Results

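Messenger RNA of 10 genes that make, package, recapture or break down the monoamines was followed through 36 whole-brain libraries of wild-type C57BL/6 mice. The genes were taken by symbol of the Ensembl identifier in the deposited table of read counts, which holds 54532 identifiers, and all 10 passed the filter on low counts that left 18438 genes. They are Th, Ddc, Dbh and Tph2 (synthesis), Slc6a2, Slc6a3 and Slc6a4 (recapture across the cell membrane), Slc18a2 (loading of vesicles), and Maoa and Maob (breakdown).

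Dopamine and noradrenaline are made from tyrosine, which tyrosine hydroxylase (Th) turns into L-DOPA, Ddc turns into dopamine and, in noradrenergic neurons, Dbh turns into noradrenaline. Serotonin is made from tryptophan by Tph2 and then Ddc. These transmitters come from small groups of cell bodies, dopamine chiefly from the ventral midbrain, noradrenaline from the locus coeruleus and other hindbrain groups, and serotonin from the raphe nuclei, while interneurons of the olfactory bulb around the glomeruli also carry Th. After release they are recaptured by Slc6a3 (dopamine), Slc6a2 (noradrenaline) or Slc6a4 (serotonin), loaded into vesicles by Slc18a2, or oxidised at the outer mitochondrial membrane by Maoa and Maob.

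The brains were taken at day 19, the peak of experimental autoimmune encephalomyelitis (EAE), an inflammatory disease of the central nervous system used as a model of multiple sclerosis. EAE was induced with the myelin peptide MOG35-55 in complete Freund's adjuvant and pertussis toxin, the toxin being repeated on the next day. The groups were EAE mice gavaged daily with farnesol, an isoprenoid alcohol, in corn oil at 100 mg/kg/day (n = 10), EAE mice gavaged with corn oil vehicle (n = 9), EAE mice left untreated (n = 9) and healthy naive mice (n = 8). No group had the adjuvant and toxin without the peptide, so their effects cannot be told apart from those of the disease, and the labels give neither age nor batch. Brains are named below by group and label number, as in farnesol brain 2.

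Levels are CPM, that is read counts relative to the scaled library size, and changes are log2 with their standard error (SE). The libraries held 14.71 M to 24.21 M counts. Tests were edgeR's quasi-likelihood test over all 18438 genes with Benjamini-Hochberg adjustment, and a change was called at an adjusted p below 0.05; p-values measure the spread between these samples. The 6 neuronal markers fixed for this check summed to 4480 to 5830 CPM in every library, so the labelled tissue was seen, but regional markers varied widely, as given beside the results they touch. The libraries also fell into 2 sets by 1 ribosomal RNA gene (1284 to 2784 CPM against 5091 to 17689 CPM). The low set held farnesol brains 1 to 3 and all vehicle and untreated brains, and the high set held farnesol brains 4 to 10 and all naive brains.

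Th was the only one of the 10 genes that passed the test, and it was lower in EAE brains. In the naive comparisons 1 of the 10 genes was called with farnesol, against 33.9% of all genes tested. With vehicle it was 0 of 10, against 31.3% of all genes. In untreated EAE it was 1 of 10, against 24.6% of all genes. The median log2 change of the 10 genes was -0.02 with farnesol, -0.07 with vehicle and -0.09 in untreated EAE, beside medians of 0.005, 0.004 and -0.006 over all genes. In each comparison the share of the 10 genes that was called lay below that of all genes.

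Because Th carries the change and the pairs Tph2 with Slc6a4 and Dbh with Slc6a2 carry the differences between brains described below, the 250 bases upstream of the transcript start are shown for Th, Tph2, Slc6a4 and Dbh, on the coding strand from 5′ to 3′, from RefSeq (GRCm38.p6). The windows are chr7:142899996-142900245 on the minus strand for Th, chr10:115185023-115185272 on the minus strand for Tph2, chr11:76998347-76998596 on the plus strand for Slc6a4 and chr2:27165257-27165506 on the plus strand for Dbh. Capitals mark a full cAMP response element, TGACGTCA, or a TATA box, TATAAA, both searched on both strands; the 2 motifs do not overlap.
Th promoter: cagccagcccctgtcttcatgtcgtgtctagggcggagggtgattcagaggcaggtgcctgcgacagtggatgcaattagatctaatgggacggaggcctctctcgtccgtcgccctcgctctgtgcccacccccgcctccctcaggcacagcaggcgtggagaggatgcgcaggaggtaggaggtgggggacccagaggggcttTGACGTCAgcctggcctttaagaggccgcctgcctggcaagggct
Tph2 promoter: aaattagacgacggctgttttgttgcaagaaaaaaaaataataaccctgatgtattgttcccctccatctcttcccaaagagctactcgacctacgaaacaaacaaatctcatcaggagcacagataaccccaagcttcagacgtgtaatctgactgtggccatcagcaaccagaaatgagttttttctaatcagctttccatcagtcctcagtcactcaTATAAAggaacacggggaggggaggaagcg
Slc6a4 promoter: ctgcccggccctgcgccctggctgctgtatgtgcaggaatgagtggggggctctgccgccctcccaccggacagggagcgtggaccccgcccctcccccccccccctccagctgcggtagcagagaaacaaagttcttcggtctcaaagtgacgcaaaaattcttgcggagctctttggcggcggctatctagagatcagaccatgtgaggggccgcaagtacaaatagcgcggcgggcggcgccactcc
Dbh promoter: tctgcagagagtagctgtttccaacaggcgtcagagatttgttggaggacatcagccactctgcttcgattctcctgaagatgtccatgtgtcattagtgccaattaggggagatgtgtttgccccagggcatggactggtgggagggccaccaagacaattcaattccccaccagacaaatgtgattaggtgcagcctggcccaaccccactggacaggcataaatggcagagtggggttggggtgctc
The full response element began at position -45 in Th, and 1.55% of 32851 promoter windows of the same length held one. TATAAA began at position -30 in Tph2 and was held by 12.37% of windows. The windows of Slc6a4 and Dbh held neither.

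**Figure D1:**
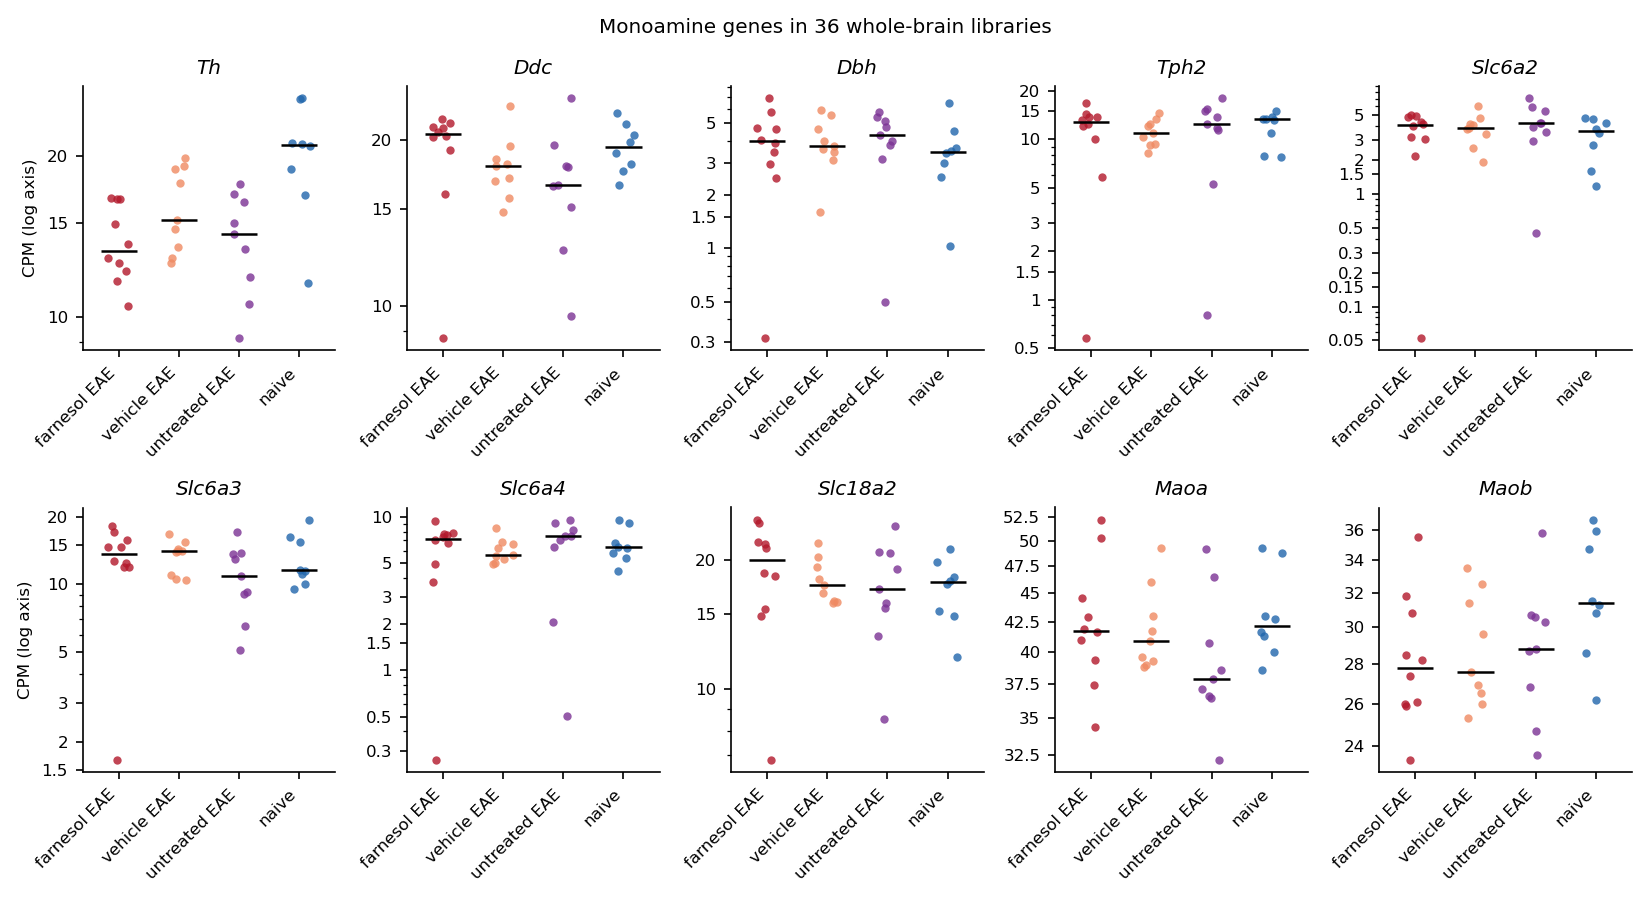
Level of each of the 10 genes (CPM, log axis) in every library; points are brains, bars are group medians, and groups run from farnesol EAE (n = 10) through vehicle EAE (n = 9) and untreated EAE (n = 9) to naive (n = 8). Th is the gene whose 3 EAE groups sit below the naive median of 20.9 CPM, and farnesol brain 2 and untreated brain 2 lie far below their groups in Dbh, Tph2, Slc6a2 and Slc6a4.

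Th (chr7:142892752-142931128, minus strand, GRCm38) catalyses the rate-limiting step of catecholamine synthesis. Its lowest, median and highest levels were 10.5, 13.3 and 16.7 CPM in farnesol brains, 12.6, 15.2 and 19.8 CPM in vehicle brains, 9.14, 14.3 and 17.7 CPM in untreated EAE brains, and 11.6, 20.9 and 25.6 CPM in naive brains. Each EAE brain lay below the naive median, but the groups overlapped. The lowest naive brains were numbers 8 (11.6 CPM), 6 (16.9 CPM) and 4 (18.9 CPM). The highest vehicle brain lay above all of these, and the highest untreated brain above numbers 8 and 6. The highest farnesol brain lay above number 8 alone.

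Relative to naive brains, Th fell by 0.54 ± 0.13 with farnesol (log2 ± SE; 0.686-fold, adjusted p = 0.00166). In untreated EAE it fell by 0.53 ± 0.13 (0.69-fold, adjusted p = 0.00336). With vehicle the change of -0.33 ± 0.13 missed the threshold (0.794-fold, adjusted p = 0.0552), although all 9 vehicle brains lay below the naive median. DESeq2 called that change too (adjusted p = 0.0416), as did edgeR without naive brain 8 (-0.42, adjusted p = 0.00983), without naive brain 6 (adjusted p = 0.0457), or without vehicle brain 1, 3 or 4 (adjusted p from 0.0397 to 0.0426). Other marker lists moved in the same comparisons. The 6 neuron markers all fell with farnesol, 4 with vehicle and 3 in untreated EAE, with the summed levels given beside the receptors. The 6 monocyte and macrophage markers all rose in each, summing to 72.1 to 765 CPM in farnesol brains, 58.2 to 1400 CPM in vehicle brains, 90.9 to 578 CPM in untreated EAE brains and 14.8 to 20.9 CPM in naive brains. The 6 neutrophil markers also all rose, summing to 20.8 to 67.2 CPM in farnesol brains, 25 to 59.3 CPM in vehicle brains, 10.7 to 60.3 CPM in untreated EAE brains and 1.61 to 3.86 CPM in naive brains, and the part of these lists in the change of Th was not tested. In bulk tissue, fewer cells of a type and less RNA per cell cannot be told apart.

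The fall of Th held within the high set of ribosomal RNA, where 7 farnesol and 8 naive brains gave a log2 change of -0.51 (adjusted p = 0.012). Vehicle and untreated brains have no naive brain in their set. With the set as a term in the fit, the change in untreated EAE was -0.45 (adjusted p = 0.387), that with vehicle -0.25 (adjusted p = 0.602) and that with farnesol -0.52 (adjusted p = 0.00896). The term rests on the 10 farnesol brains alone, the one group present in both sets.

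Olfactory bulb markers moved with Th. The 7 markers fixed for that region, among them Cdhr1, a cadherin of mitral and tufted cells, and Omp, of olfactory sensory neurons, had a summed level of 15.9 to 59.3 CPM in farnesol brains (median 18), 18.2 to 74.4 CPM in vehicle brains (median 30.0), 17.3 to 59.2 CPM in untreated EAE brains (median 24.1) and 23.8 to 104 CPM in naive brains (median 73.4). None of the 7 was at 0 throughout a group. In the edgeR fit all 7 fell with farnesol, 3 with vehicle and 4 in untreated EAE, relative to naive. Omp, the one with the largest fall, averaged 0.556 ± 0.259 CPM in farnesol brains, 0.618 ± 0.634 CPM in vehicle brains, 0.779 ± 0.743 CPM in untreated EAE brains and 5.1 ± 4.02 CPM in naive brains (SD).

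The naive brain with the lowest Th, number 8, was also the naive brain with the fewest bulb transcripts (23.8 CPM), and naive brains 4 and 6, next lowest in Th at 18.9 and 16.9 CPM, had the next fewest at 37.5 and 54.0 CPM. Over the 36 libraries, with group means removed, Th and the mean log2 level of the bulb markers had Pearson r = 0.49 (permutation p = 0.00432, adjusted 0.0205 over the 10 genes) and Spearman rho = 0.40 (permutation p = 0.0209, adjusted 0.105). Without the 2 brains farthest from the median in bulb markers, farnesol 2 and vehicle 1, r was 0.60. When this bulb score was added to the edgeR model as a term, Th changed by -0.21 with farnesol (adjusted p = 0.366), -0.11 with vehicle (adjusted p = 0.61) and -0.27 in untreated EAE (adjusted p = 0.184). It was called in none of the 3 comparisons. The score itself averaged 1.42 in farnesol, 1.83 in vehicle, 1.72 in untreated EAE and 2.77 in naive brains. The term therefore takes up part of the difference between groups, and this fit cannot tell the 2 apart. It was chosen after the values were seen. Whether the bulbs stayed with the dissected brains is not given in the labels.

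**Figure D2:**
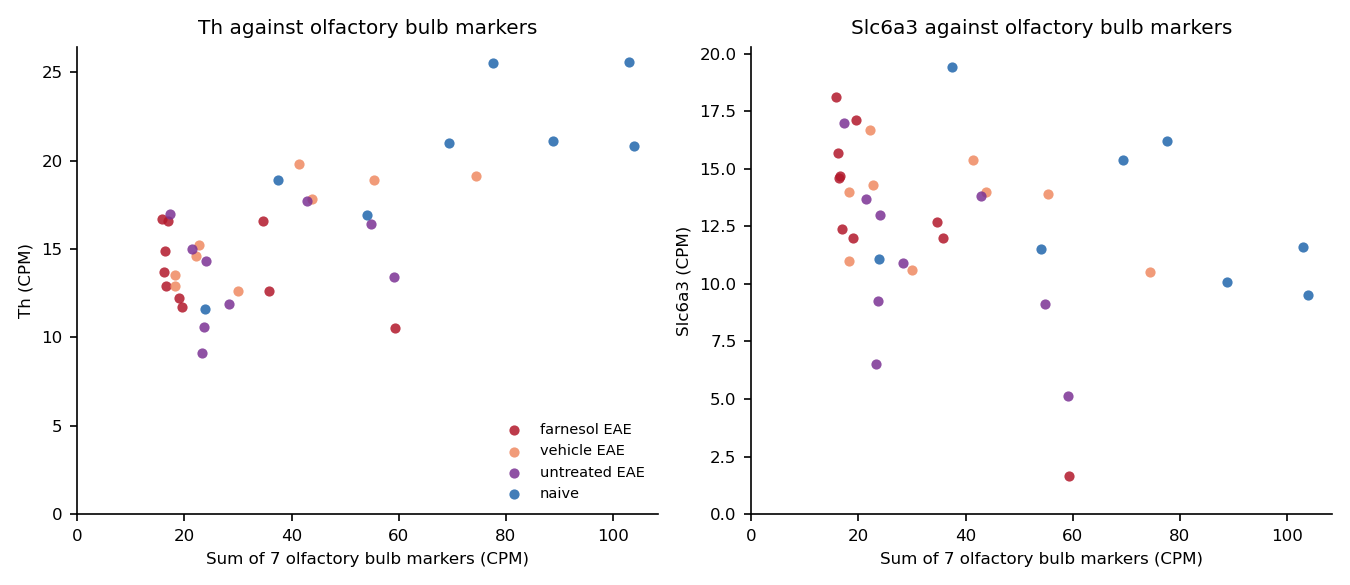
Level of Th (left) and of the dopamine transporter Slc6a3 (right) against the summed level of 7 olfactory bulb markers in each brain (all in CPM, linear axes); colours are the 4 groups. Naive brains with 54.0 to 104 CPM of bulb markers have 16.9 to 25.6 CPM of Th, whereas naive brain 8, at 23.8 CPM of markers, has 11.6 CPM; Slc6a3 does not climb with the markers.

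The dopamine transporter Slc6a3 (chr13:73536747-73578672, plus strand), which marks midbrain dopamine neurons, did not pass in any naive comparison. It had 1.67, 13.6 and 18.1 CPM (lowest, median, highest) in farnesol brains, 10.5, 14.0 and 16.7 CPM in vehicle brains, 5.11, 10.9 and 17.0 CPM in untreated EAE brains and 9.53, 11.6 and 19.4 CPM in naive brains. The groups overlapped, but in untreated EAE 4 of 9 brains lay below every naive brain and 5 of 9 below the naive median. With vehicle these counts were 0 of 9 and 3 of 9, and with farnesol 1 of 10 and 1 of 10. In each comparison 0 brains lay above every naive brain. The log2 change over naive was -0.01 ± 0.24 with farnesol (95% interval -0.49 to 0.48), 0.03 ± 0.25 with vehicle (-0.47 to 0.53) and -0.27 ± 0.25 in untreated EAE (-0.77 to 0.23). With group means removed it ran against the bulb markers, as did Ddc (r = -0.42, rho = -0.28), Tph2 (r = -0.43, rho = -0.29) and Slc6a4 (r = -0.40, rho = -0.23). Permutation p-values of r adjusted over the 10 genes were 0.0205, 0.0205 and 0.0235, those of rho were 0.255, 0.165 and 0.302, and the values of r without farnesol brain 2 and vehicle brain 1 were -0.25, -0.30 and -0.29 in that order. For Slc6a3, r was -0.45 (permutation p = 0.00371, adjusted 0.0205), rho was -0.39 (permutation p = 0.0191, adjusted 0.105), and r was -0.31 without farnesol brain 2 and vehicle brain 1. Untreated brain 2 stayed in all these values. It had the most bulb markers of its group (59.2 CPM) and Tph2 at 6.44% of the group median.

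Ddc (chr11:11814101-11898144, minus strand), the decarboxylase shared by dopamine and serotonin neurons, had 8.71, 20.6 and 21.9 CPM in farnesol brains, 14.8, 18 and 23.1 CPM in vehicle brains, 9.58, 16.6 and 23.9 CPM in untreated EAE brains and 16.6, 19.4 and 22.4 CPM in naive brains. In untreated EAE 7 of 9 brains lay below the naive median and 4 of 9 below every naive brain; with vehicle 7 of 9 lay below the naive median and 2 of 9 below every naive brain, and with farnesol 3 of 10 and 2 of 10. The log2 change over naive was -0.02 ± 0.13 with farnesol, -0.11 ± 0.13 with vehicle and -0.22 ± 0.14 in untreated EAE (adjusted p = 0.237). Without the 3 brains poor in cerebellar transcripts (farnesol 2, untreated 3 and naive 4), Ddc was called lower in untreated EAE than in naive brains (-0.28, adjusted p = 0.0389) and higher with farnesol than in untreated EAE (0.37, adjusted p = 0.0272).

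Slc18a2 (chr19:59260896-59296012, plus strand), the vesicular carrier of all monoamine neurons, had 6.83, 20.1 and 24.9 CPM in farnesol brains, 15.9, 17.5 and 22 CPM in vehicle brains, 8.52, 17.1 and 24 CPM in untreated EAE brains and 11.9, 17.8 and 21.3 CPM in naive brains. The groups overlapped, although 5 of 10 farnesol brains lay above every naive brain. The log2 change over naive was 0.14 ± 0.17 with farnesol, 0.07 ± 0.17 with vehicle and 0.01 ± 0.17 in untreated EAE, with no adjusted p below 0.555. Antisense genes overlap Ddc (22 counts over all libraries), Slc18a2 (10 counts) and Slc6a4 (0 counts). Whether strand was used in counting is not given, so the effect of the overlaps on these levels is not known.

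**Figure D3:**
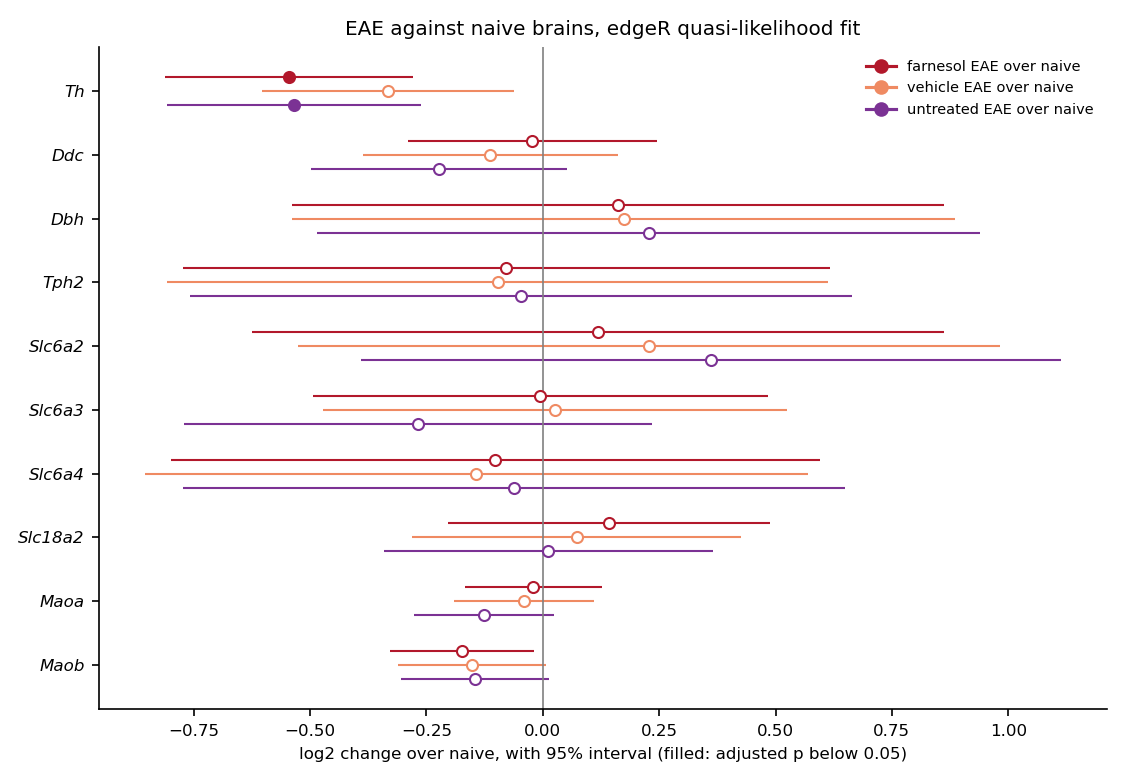
Log2 change of each gene in farnesol, vehicle and untreated EAE brains over naive brains (edgeR, 95% intervals; filled points have an adjusted p below 0.05). Th with farnesol (-0.54) and in untreated EAE (-0.53) are the filled points, and the intervals of Dbh, Tph2, Slc6a2 and Slc6a4 are the widest.

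The serotonin genes were not called between any groups, which does not show that the groups were alike. Tph2 (chr10:115078641-115185022, minus strand), the brain form of tryptophan hydroxylase, had 0.574, 12.9 and 16.8 CPM in farnesol brains, 8.21, 11 and 14.5 CPM in vehicle brains, 0.802, 12.4 and 18.1 CPM in untreated EAE brains and 7.80, 13.3 and 15.1 CPM in naive brains. Slc6a4 (chr11:76998603-77032340, plus strand), the serotonin transporter, had 0.261, 7.18 and 9.44 CPM in farnesol brains, 4.94, 5.66 and 8.42 CPM in vehicle brains, 0.501, 7.52 and 9.58 CPM in untreated EAE brains and 4.42, 6.30 and 9.53 CPM in naive brains. The ranges of all groups overlapped, with 2 of 10 farnesol, 0 of 9 vehicle and 2 of 9 untreated brains below every naive brain in both genes. Above every naive brain lay 1 farnesol, 0 vehicle and 2 untreated brains in Tph2, and 0, 0 and 1 in Slc6a4.

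Changes over naive were small beside their error. Tph2 changed by -0.08 ± 0.34 with farnesol, -0.10 ± 0.35 with vehicle and -0.05 ± 0.35 in untreated EAE. Slc6a4 changed by -0.10 ± 0.34 with farnesol, -0.14 ± 0.35 with vehicle and -0.06 ± 0.35 in untreated EAE. The 95% interval of Tph2 with farnesol reached from -0.77 to 0.62.

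The noradrenaline genes were not called between any groups either. Dbh (chr2:27165233-27183200, plus strand), which turns dopamine into noradrenaline, had 0.313, 3.98 and 6.94 CPM in farnesol brains, 1.60, 3.76 and 5.94 CPM in vehicle brains, 0.501, 4.33 and 5.82 CPM in untreated EAE brains and 1.03, 3.47 and 6.5 CPM in naive brains. Slc6a2 (chr8:92960079-93001667, plus strand), the noradrenaline transporter, had 0.0521, 4.08 and 4.99 CPM in farnesol brains, 1.93, 3.81 and 6.06 CPM in vehicle brains, 0.451, 4.26 and 7.09 CPM in untreated EAE brains and 1.18, 3.6 and 4.71 CPM in naive brains. Every group held 1 brain far below its median in both genes.

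Dbh changed over naive by 0.16 ± 0.34 with farnesol, 0.17 ± 0.35 with vehicle and 0.23 ± 0.35 in untreated EAE. Slc6a2 changed by 0.12 ± 0.37 with farnesol, 0.23 ± 0.37 with vehicle and 0.36 ± 0.37 in untreated EAE. No adjusted p of either gene was below 0.521, and the interval of Slc6a2 in untreated EAE ran from -0.39 to 1.11. These are the least abundant transcripts of the 10.

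The oxidases were abundant and varied little between brains. Maoa (chrX:16619698-16687818, plus strand), which prefers serotonin and noradrenaline, had 34.4, 41.7 and 52.2 CPM in farnesol brains, 38.8, 40.9 and 49.3 CPM in vehicle brains, 32.2, 37.9 and 49.2 CPM in untreated EAE brains and 38.6, 42.1 and 49.3 CPM in naive brains. Maob (chrX:16709282-16817366, minus strand), the oxidase of astrocytes and serotonin neurons, had 23.4, 27.8 and 35.5 CPM in farnesol brains, 25.3, 27.6 and 33.5 CPM in vehicle brains, 23.6, 28.8 and 35.8 CPM in untreated EAE brains and 26.2, 31.4 and 36.7 CPM in naive brains. All groups overlapped. In Maob 8 of 10 farnesol, 6 of 9 vehicle and 8 of 9 untreated brains lay below the naive median. Those below every naive brain were 4 of 10, 2 of 9 and 2 of 9 in that order. In Maoa 6 of 10 farnesol, 6 of 9 vehicle and 7 of 9 untreated brains lay below the naive median. Of these groups 2 of 10, 0 of 9 and 5 of 9 lay below every naive brain in Maoa, and 2 farnesol brains lay above every naive brain.

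Maoa changed over naive by -0.02 ± 0.07 with farnesol, -0.04 ± 0.07 with vehicle and -0.13 ± 0.07 in untreated EAE. Maob changed by -0.17 ± 0.08 with farnesol (adjusted p = 0.0772), -0.15 ± 0.08 with vehicle (adjusted p = 0.139) and -0.15 ± 0.08 in untreated EAE (adjusted p = 0.178). Within the high set of ribosomal RNA, Maob was called lower with farnesol than in naive brains (-0.22, adjusted p = 0.0225), and likewise without farnesol brain 3 (adjusted p = 0.0273) or naive brain 1 (adjusted p = 0.0339). Of 6 astrocyte markers, 4 fell and 1 rose with farnesol, 1 fell and 1 rose with vehicle, and 2 fell and 1 rose in untreated EAE. The 6 summed to 3620 to 4250 CPM in farnesol brains, 3140 to 4410 CPM in vehicle brains, 3480 to 4510 CPM in untreated EAE brains and 3910 to 4950 CPM in naive brains, none was at 0, and their part in the result was not tested.

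Farnesol and vehicle gavage left all 10 genes without a call within EAE. Between farnesol and vehicle brains 0 of 10 were called by edgeR, 0 by DESeq2 and 0 at an unadjusted p below 0.05, against 0.0922% of all genes called. Between vehicle and untreated brains the 3 counts were again 0, against 0.038% of all genes called, and between farnesol and untreated brains they were 0, against 1.83%. The largest difference between farnesol and vehicle was in Th, -0.21 ± 0.13 (95% interval -0.47 to 0.05, adjusted p = 0.984). Between vehicle and untreated brains it was in Slc6a3, 0.29 ± 0.24 (-0.19 to 0.78), and between farnesol and untreated brains it was also in Slc6a3, 0.26 ± 0.23 (-0.21 to 0.74). These intervals allow changes in either direction, so likeness of the EAE groups is not shown.

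Per kilobase of annotated exon, the naive levels were 11.5 ± 1.3 CPM for Maob, 10.4 ± 0.938 for Maoa, 8.54 ± 1.93 for Th, 4.35 ± 0.442 for Ddc, 4.15 ± 0.959 for Tph2, 3.79 ± 1.01 for Slc6a3, 3.28 ± 0.575 for Slc18a2, 1.48 ± 0.387 for Slc6a4, 1.31 ± 0.587 for Dbh and 0.521 ± 0.213 for Slc6a2 (SD, n = 8). Neighbours in this order differed by less than the larger of their 2 SDs from Maob through Maoa to Th. The same held from Ddc through Tph2 and Slc6a3 to Slc18a2, and for Slc6a4 and Dbh.

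The spread between brains was uneven across the 10 genes. In naive brains the coefficient of variation was 9.1% for Maoa, 11.4% for Maob and 10.2% for Ddc, but 44.9% for Dbh and 40.8% for Slc6a2. There were 2 brains that lacked most of the transcripts of hindbrain monoamine neurons. Farnesol brain 2 had 11 counts of Tph2 (0.574 CPM, 4.46% of its group's median), 5 of Slc6a4 (3.63%), 6 of Dbh (7.86%) and 1 of Slc6a2 (1.28%). Untreated brain 2 had 16 counts of Tph2 (0.802 CPM, 6.44%), 10 of Slc6a4 (6.67%), 10 of Dbh (11.6%) and 9 of Slc6a2 (10.6%).

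The same brains kept more of the other genes. In farnesol brain 2, Slc6a3 was at 12.2% of the group median, Slc18a2 at 34.0% and Ddc at 42.3%, against 79.4% for Th, 82.4% for Maoa and 93.3% for Maob. In untreated brain 2, Slc6a3 was at 47.1%, Slc18a2 at 49.9% and Ddc at 57.6%, against 93.8% for Th, 85% for Maoa and 85.7% for Maob. Th and Maoa in farnesol brain 2, and Maoa in untreated brain 2, were nonetheless the lowest of their groups. Both brains had the most bulb markers of their groups (59.3 CPM in farnesol brain 2 and 59.2 CPM in untreated brain 2).

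Other regional markers differed between the 2 brains. The 12 brainstem and hindbrain markers, mostly Hox genes, summed to 1.09 CPM in farnesol brain 2 (group median 54.1) and 16.9 CPM in untreated brain 2 (group median 46.5). Farnesol brain 7 (13.7 CPM), naive brain 8 (14.5 CPM), vehicle brain 6 (15.6 CPM) and naive brain 4 (16.4 CPM) had less than untreated brain 2, yet they had 7.90 to 13.7 CPM of Tph2. The 7 cerebellar markers summed to 40.6 CPM in farnesol brain 2 (group median 1130) and 691 CPM in untreated brain 2 (group median 1100). Cortical markers were at 411 and 404 CPM in the 2 brains, the highest of their groups. The part of tissue sampling in these values was not tested.

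Low cerebellar markers did not always go with low monoamine genes. Naive brain 4, with 46.2 CPM of cerebellar markers, had the lowest Dbh (1.03 CPM) and Slc6a2 (1.18 CPM) of its group but 13.7 CPM of Tph2 and the highest Slc6a3 of its group, 19.4 CPM. Untreated brain 5 had low Tph2 (5.25 CPM) and Slc6a4 (2.06 CPM) but 4.76 CPM of Dbh, and 5.40 CPM of Slc6a2. The serotonin pair and the noradrenaline pair were low in different brains there. Without farnesol brain 2 and untreated brain 2, the calls among the 10 genes stayed as they were, with Th at -0.50 (adjusted p = 0.00436) with farnesol and -0.52 (adjusted p = 0.00554) in untreated EAE.

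With group means removed, the genes fell into pairs that varied together between brains. Tph2 and Slc6a4 had r = 0.97 and rho = 0.90, and Dbh and Slc6a2 had r = 0.93 and rho = 0.84, over 36 libraries. All 4 permutation p-values were 1e-05, the smallest that the permutations can give, and adjusted over 45 pairs of genes they were 0.000112 for both r and 0.00015 for both rho. Without untreated brain 2 and farnesol brain 2, r was 0.88 for Tph2 with Slc6a4 and 0.83 for Dbh with Slc6a2.

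**Figure D4:**
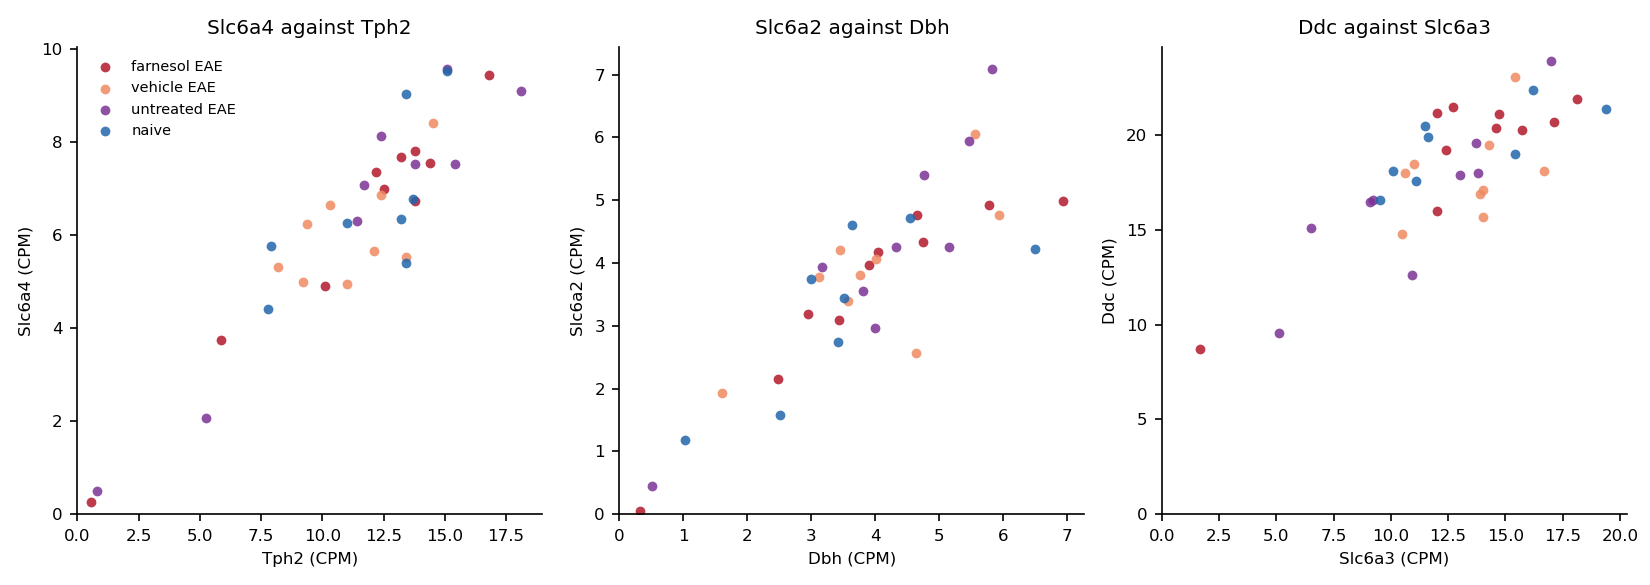
Slc6a4 against Tph2, Slc6a2 against Dbh, and Ddc against Slc6a3 in 36 brains (CPM, linear axes from 0; colours are the 4 groups). The first 2 pairs lie close to a line in all groups, and the lowest points are farnesol brain 2 and untreated brain 2.

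Between the serotonin and noradrenaline pairs r was lower without those 2 brains, at 0.27 to 0.44 over the 4 combinations. The highest was Slc6a2 with Tph2, with r = 0.83 (permutation p = 0.00031, adjusted 0.00127) and rho = 0.54 (permutation p = 0.00146, adjusted 0.00469) over all brains and r = 0.44 without them. Dbh and Tph2 had r = 0.79 (permutation p = 0.00031, adjusted 0.00127) and rho = 0.54 (permutation p = 0.00106, adjusted 0.00434), and r = 0.39 without them. The lowest was Dbh with Slc6a4, which had r = 0.74 (permutation p = 0.00136, adjusted 0.00382) and rho = 0.48 (permutation p = 0.0043, adjusted 0.0107), but r = 0.27 without them. Between noradrenaline and dopamine genes, Slc6a2 and Slc6a3 had r = 0.67 (permutation p = 0.00899, adjusted 0.0139) and rho = 0.36 (permutation p = 0.0412, adjusted 0.0515), but r = 0.09 without them. Ddc and Slc6a3, by contrast, kept r = 0.64 without them, with r = 0.85 (permutation p = 2e-05, adjusted 0.000129) and rho = 0.76 (permutation p = 2e-05, adjusted 0.000225) over all brains. Ddc was not tied to Slc6a3 in particular. With Tph2 it had r = 0.87 and rho = 0.70 (both permutation p = 3e-05). With Slc6a4 it had r = 0.87 (permutation p = 2e-05) and rho = 0.67 (permutation p = 8e-05). Both kept r = 0.64 without those 2 brains. Tph2 and Slc18a2 had r = 0.89 and rho = 0.76 (both permutation p = 1e-05), and r = 0.73 without them.

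**Figure D5:**
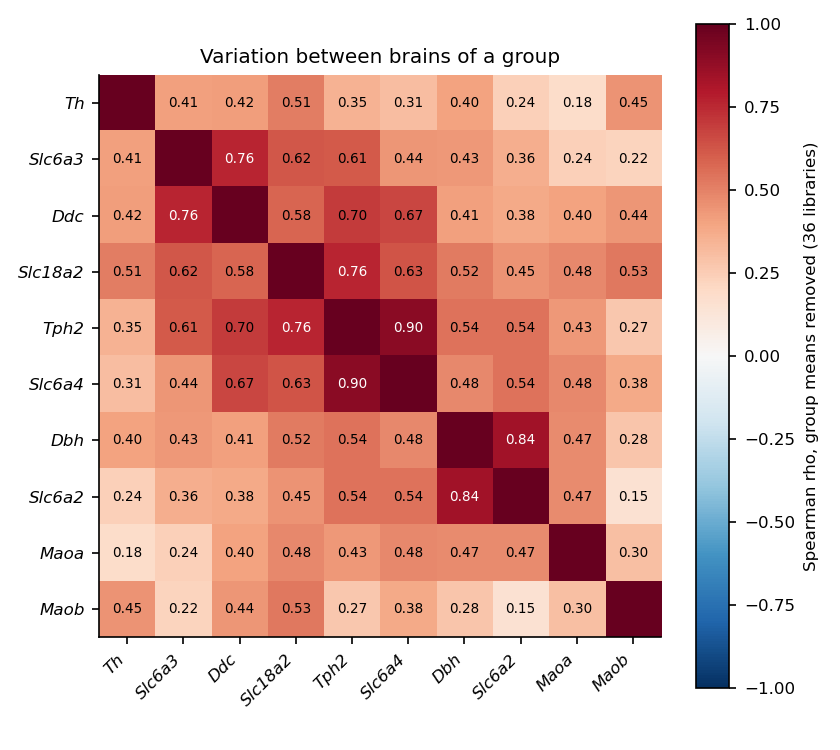
Spearman rho between the 10 genes over 36 libraries with group means removed, with the value in each cell. The highest values are 0.90 for Tph2 with Slc6a4 and 0.84 for Dbh with Slc6a2, and the lowest is 0.15 for Slc6a2 with Maob.

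Th was loosely tied to the other 9 genes. Its highest correlation was with Slc18a2 (r = 0.48, permutation p = 0.00212, adjusted 0.00555; rho = 0.51, permutation p = 0.00207, adjusted 0.00582; r = 0.45 without untreated brain 4 and naive brain 8). With Slc6a3 it had r = 0.39 (permutation p = 0.00789, adjusted 0.0127) and rho = 0.41 (permutation p = 0.0157, adjusted 0.0235), with r = 0.37 without the same brains. The genes most like Th by r, among 14008 with a mean of at least 1 CPM, included Omp (0.61) and Chrm2 (0.58); they were picked for their likeness, so no p is given.

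The same search gave other monoamine genes for most of the 10. The gene most like Tph2 was Slc6a4, and the reverse; the gene most like Dbh was Slc6a2, and the reverse. Slc6a3 was most like Chrna6 (r = 0.86, and 0.67 without untreated brain 2 and farnesol brain 2), a nicotinic receptor subunit of midbrain dopamine neurons, and then Ddc (0.85). Irx2, a homeobox gene of the hindbrain, was among the 3 most like Tph2 (0.88), Slc6a2 (0.84), Slc6a4 (0.87) and Slc18a2 (0.87). Without untreated brain 2 and farnesol brain 2 these values of r were 0.67, 0.56, 0.64 and 0.67 in that order. Maoa was most like Fam204a (0.82), Elovl7 and Laptm4b, and Maob most like Abhd4 (0.77), Ctnna1 and Prcp, and the 2 oxidases had only r = 0.33 with each other (permutation p = 0.0656, adjusted 0.0798; rho = 0.30, permutation p = 0.0915, adjusted 0.106; r = 0.30 without untreated brain 7 and farnesol brain 8).

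The wider pathway was read against the same background, 33.9% of all genes called with farnesol, 31.3% with vehicle and 24.6% in untreated EAE. Of 7 genes for the cofactor tetrahydrobiopterin, which both hydroxylases need, 1 rose and 2 fell with farnesol, 1 rose and 1 fell with vehicle, and 1 rose in untreated EAE. The share lay above that background with farnesol and below it in the other comparisons, and the difference was not tested. Pts, the second enzyme of the cofactor's synthesis, rose in all 3, by 0.27 ± 0.08 with farnesol (adjusted p = 0.00836), 0.32 ± 0.08 with vehicle (adjusted p = 0.00255) and 0.22 ± 0.08 in untreated EAE (adjusted p = 0.0369). Spr, the last enzyme, fell by 0.27 ± 0.07 with farnesol (adjusted p = 0.00243) and by 0.21 ± 0.07 with vehicle (adjusted p = 0.0183). Qdpr, which regenerates the cofactor, fell by 0.23 ± 0.09 with farnesol (adjusted p = 0.0394).

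Of 7 tested genes for breakdown and low-affinity uptake, 1 fell with farnesol, 2 with vehicle and 2 in untreated EAE, and none rose. Aldh2, which oxidises the aldehydes that Maoa and Maob release, fell by 0.20 ± 0.05 with farnesol, 0.24 ± 0.05 with vehicle and 0.20 ± 0.05 in untreated EAE (adjusted p = 0.00338, 0.000663 and 0.00626 in that order). Slc22a3, a low-affinity carrier of monoamines, fell by 0.48 ± 0.15 with vehicle (adjusted p = 0.0146) and by 0.45 ± 0.15 in untreated EAE (adjusted p = 0.0258). Hdc, which makes histamine, was 1 of 2 tested genes for other amines and rose with vehicle by 0.46 ± 0.14 (5.32 ± 0.752 CPM in vehicle brains and 3.9 ± 0.941 CPM in naive brains, adjusted p = 0.0102); the 6 mast cell markers summed to at most 0.596 CPM in any library.

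Regulators and other genes of the monoamine nuclei gave few calls. Of 10 tested transcription factors of these neurons, Nr4a2, which dopamine neurons need but other brain regions also express, fell with farnesol by 0.35 ± 0.12 (34.6 ± 4.77 CPM in farnesol brains and 44.1 ± 5.38 CPM in naive brains, adjusted p = 0.0242), and 0 were called with vehicle or in untreated EAE (0 by DESeq2 and 0 at an unadjusted p below 0.05 in both). Of 10 other genes of the nuclei, Ntsr1, a neurotensin receptor also found in the cortex, fell with farnesol by 0.36 ± 0.14 (adjusted p = 0.0427). None was called with vehicle or in untreated EAE by edgeR or DESeq2, with 0 and 1 at an unadjusted p below 0.05.

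The receptors of the 3 transmitters gave different counts, and the difference between them was not tested. Of 9 adrenergic receptor genes 5 fell with farnesol (33.9% of all genes called in either direction), 4 with vehicle (31.3%) and 0 in untreated EAE (24.6%), where DESeq2 also called 0 and 3 had an unadjusted p below 0.05. Adra2a fell by 0.27 ± 0.06 with farnesol (adjusted p = 0.00118) and by 0.19 ± 0.06 with vehicle (adjusted p = 0.0182), and was at -0.16 ± 0.06 in untreated EAE (adjusted p = 0.0691). Adrb1 fell by 0.21 ± 0.08 with farnesol and by 0.25 ± 0.08 with vehicle (adjusted p = 0.0374 and 0.0151 in that order). The 6 neuron markers fell beside them, 6 of 6 with farnesol, 4 with vehicle and 3 in untreated EAE. They summed to 4600 to 5460 CPM in farnesol brains, 4480 to 5150 CPM in vehicle brains, 4680 to 5630 CPM in untreated EAE brains and 5450 to 5830 CPM in naive brains, none was at 0, and their part in the result was not tested.

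Dopamine receptors gave 0 calls of 4 tested in each naive comparison, by edgeR, by DESeq2 and at an unadjusted p below 0.05. Of 13 serotonin receptor genes tested, 1 fell with farnesol, 2 with vehicle and 1 in untreated EAE. Htr3a, the ion channel receptor of serotonin, fell in all 3, by 0.31 ± 0.12 with farnesol (adjusted p = 0.0475), 0.35 ± 0.13 with vehicle (adjusted p = 0.0326) and 0.40 ± 0.13 in untreated EAE (adjusted p = 0.0165). Within EAE, the single call in all 8 pathway lists was Adra1d, lower with farnesol than in untreated brains (-0.41, adjusted p = 0.0174). The lists held 7, 7, 2, 10, 10, 4, 13 and 9 tested genes, and 1.83% of all genes were called in that comparison. A single call over the 8 lists is near that share, so it is not read as a result about the pathway.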

How the data were processed

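The authors deposited 1 table of raw read counts per gene, with 1 column for each of 36 libraries. Mapping was by STAR 2.5 on mm10 according to the submitters' processing notes, and the labels' protocols also mention Kallisto. Which counter, annotation release and strand setting were used is not given. Symbols came from GENCODE by identifier (54409 of 54532 named, 99.94% of counts).

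In R 4.3.3, edgeR 4.0.16 dropped genes of low count with filterByExpr (a minimum of 10 counts and a total of 15). Libraries were scaled by TMM and fitted in 1 robust quasi-likelihood model of 4 group means over all 36 libraries. Benjamini-Hochberg adjustment ran over 18438 genes. Correlations used log2(CPM + 0.5) centred on group means, with 100000 permutations within groups. DESeq2 1.42.0, other scalings and filters, fits of 2 groups, library sets, a replicate block and libraries left out were alternatives. The edgeR script was tested on simulated data. Named genes were the 10 members, up to 3 called genes of smallest p per pathway list, and the 3 genes most like each member, of which 1 gene is not reported here. Members and lists were chosen with earlier results of these data known; the bulb markers as a term and the brains low in Tph2 were chosen after the values were seen. Same-numbered libraries of different groups correlated no more (median r 0.01 over 51 pairs) than others (0.002 over 434 pairs), so the numbers do not pair animals. Replicates are labelled as separate, with no statement of separate animals.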

Additional observations from a re-analysis of the deposited data

Results flagged for a closer look

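Of 40 sets of 8 to 10 brains (10 genes in 4 groups), 3 had a brain whose gap to its neighbour was a larger share of the group's range than Dixon's 95% value, and chance alone marks about 1 in 20 sets. Ddc in farnesol brain 2 was 8.71 CPM, the lowest of its group, and the next was 16 CPM. Slc6a3 in the same brain was 1.67 CPM, and the next was 12.0 CPM. Dbh in untreated brain 2 was 0.501 CPM, and the next was 3.17 CPM. All 3 values come from the 2 brains with the least Tph2. Brainstem and hindbrain markers were lowest of all in farnesol brain 2, whereas untreated brain 2 (16.9 CPM) was not set apart from farnesol brain 7 (13.7 CPM), naive brain 8 (14.5 CPM), vehicle brain 6 (15.6 CPM) or naive brain 4 (16.4 CPM).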

How the results depend on the processing

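Of 1730 values of the 10 genes recomputed under the alternatives, 1713 kept their call, 13 gained one, 4 lost it and 0 reversed; 200 values called in neither fit changed sign, reaching at most 0.87. The number of monoamine genes called moved as follows. Against naive, farnesol gave 2 with the set as a term, 2 within the high set and 0 with the bulb score as a term. Vehicle gave 1 with DESeq2 and 1 without the 8 brains that had Sbp above 1 CPM. Untreated EAE gave 0 with the set as a term, 0 with the bulb score, 0 without the Sbp brains and 2 without the cerebellum-poor brains. Farnesol against untreated gave 1 without the cerebellum-poor brains. Th without the Sbp brains (untreated 1 to 5 and vehicle 3 to 5) was at -0.41 (adjusted p = 0.0392) with vehicle and -0.45 (adjusted p = 0.0581) in untreated EAE.

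Counts over all genes moved too. Farnesol against vehicle (17) gave 42 with DESeq2, 0 with the 2 groups alone, 1 with the set as a term, 0 within the low set, 4 with the bulb score, 2 without the Sbp brains and 0 without brains far in brainstem markers. Vehicle against untreated (7) gave 3 with the looser filter, 43 with DESeq2, 1 with the 2 groups alone, 11 with the set as a term, 1 within the low set, 15 with the bulb score, 1 without the cerebellum-poor brains, and 0 without the Sbp brains, the brains far in brainstem markers, or the 2 brains low in Tph2. Farnesol against untreated (338) gave 521 with DESeq2, 125 with the 2 groups alone, 60 with the set as a term, 11 within the low set, 548 without the cerebellum-poor brains, 220 without the Sbp brains and 0 without brains far in brainstem markers. Against naive, the set as a term gave 170 in untreated EAE and 638 with vehicle, and the bulb score gave 3771 with farnesol. The cause was not tested; several of these fits hold fewer libraries.

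Leaving out each library in turn gave 5574 to 6411 genes for farnesol, 5044 to 5718 for vehicle and 3638 to 4594 for untreated EAE against naive, 4 to 36 for farnesol against vehicle, 188 to 500 for farnesol against untreated and 0 to 14 for vehicle against untreated. It gave 1 to 2 monoamine genes for farnesol, 0 to 1 for vehicle and 1 for untreated EAE against naive, and 0 between EAE groups. Th ranged from -0.63 to -0.49 with farnesol, -0.42 to -0.28 with vehicle and -0.62 to -0.47 in untreated EAE.

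With the replicate number as a block, which does not pair animals here, the counts were 4 for farnesol against vehicle, 11 for vehicle against untreated and 193 for farnesol against untreated, and the calls among the monoamine genes stayed the same. Leaving out brains far in brainstem markers removed every naive brain, so it was run between EAE groups only. With 1 to 16 counts of some genes in 2 brains, depth limits what their levels can show.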
